A study of Homo sapiens with 18 samples.

Results

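ZMYND8 and GFP cells were compared after 48 h of doxorubicin by mRNA sequencing of the human breast cancer cell line MDA-MB-231. The comparison used 4 of the 18 libraries in the series, 2 for each line, chosen by the construct, the drug and the time in their labels. Both stable lines were selected with G418 and carried a doxycycline-inducible lentiviral construct, which encoded Flag-tagged ZMYND8 in the ZMYND8 cells and GFP in the control cells. All 4 libraries came from cells given 250 ng/mL doxycycline, started 4 h before the drug and kept on, and then 0.6 µM doxorubicin for 48 h. Each construct was carried by 1 line, and so the construct and any other difference between the lines cannot be told apart. The deposited counts totalled 20175357 and 21176172 in the GFP libraries and 22142730 and 20888496 in the ZMYND8 libraries. Another 8 libraries of the same lines, untreated or after 6 h of the drug, entered the same statistical fit. They came from cells also given 250 ng/mL doxycycline, so untreated means without doxorubicin, not without induction. They are cited only where they show how the difference at 48 h compares with that before and early in treatment.

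ZMYND8 is a chromatin reader whose PHD finger, bromodomain and PWWP domain bind modified histone tails, and whose MYND domain binds other proteins. It is known to work with the histone demethylase KDM5C and with the NuRD co-repressor complex, and to be drawn to damaged DNA. Doxorubicin is an anthracycline that inserts between DNA bases and traps topoisomerase II on cut DNA, which breaks the DNA and stalls replication. MDA-MB-231 is a basal, mesenchymal-like line without estrogen receptor, with mutant p53, and with strong basal NF-kB and invasive gene activity. The study asked whether raising ZMYND8 changes the response of such cells to the drug, with genes of stemness, drug resistance, invasion and DNA damage in view.

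After 48 h of doxorubicin the lines differed at many genes. Keratins 14 and 17, cyclooxygenase 2, a large part of the immediate early genes, some interferon-stimulated genes, ribosomal protein genes and mitochondrial transcripts were higher in ZMYND8 cells. The matrix protein SPARC, the complement component C3, alpha-1-antitrypsin and the chemokines CXCL1 and CXCL8 were lower. So were most genes of cholesterol synthesis and of DNA replication. A gene was called when its adjusted p was at most 0.05 and its log2 fold change at least 1.5 in either direction, tested by quasi-likelihood in edgeR, with Benjamini-Hochberg correction across 18801 genes. By this rule 1742 genes were called (9.27% of those tested), 685 higher (3.64%) and 1057 lower (5.62%) in ZMYND8 cells. At an adjusted p of at most 0.05 and any size, 5341 genes (28.4%) rose and 5947 (31.6%) fell, and over every gene tested the fold changes had a median of −0.04 (log2). In what follows, rose and fell mean higher and lower in ZMYND8 than in GFP cells at an adjusted p of at most 0.05, fold changes are ZMYND8 over GFP on the log2 scale, and levels are CPM after scaling with TMM factors.

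The call count changed with the filter on low counts. With at least 10 counts required in every library 826 genes were called, and with no filter on low counts 1956. The stricter filter drops, by construction, both sparse genes and genes near absent in either line however high in the other, such as SPARC. The fall to 826 therefore cannot show how far the calls depend on sparse genes. Of the genes called higher, 95 had at most 3 counts in each GFP library, as 121 of those called lower had in each ZMYND8 library. The submitters call the replicates biological and do not say whether they were separate cultures, so the p-values measure the spread between these samples. Bulk RNA cannot tell fewer cells that express a gene from less RNA of it per cell.

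**Figure D1:**
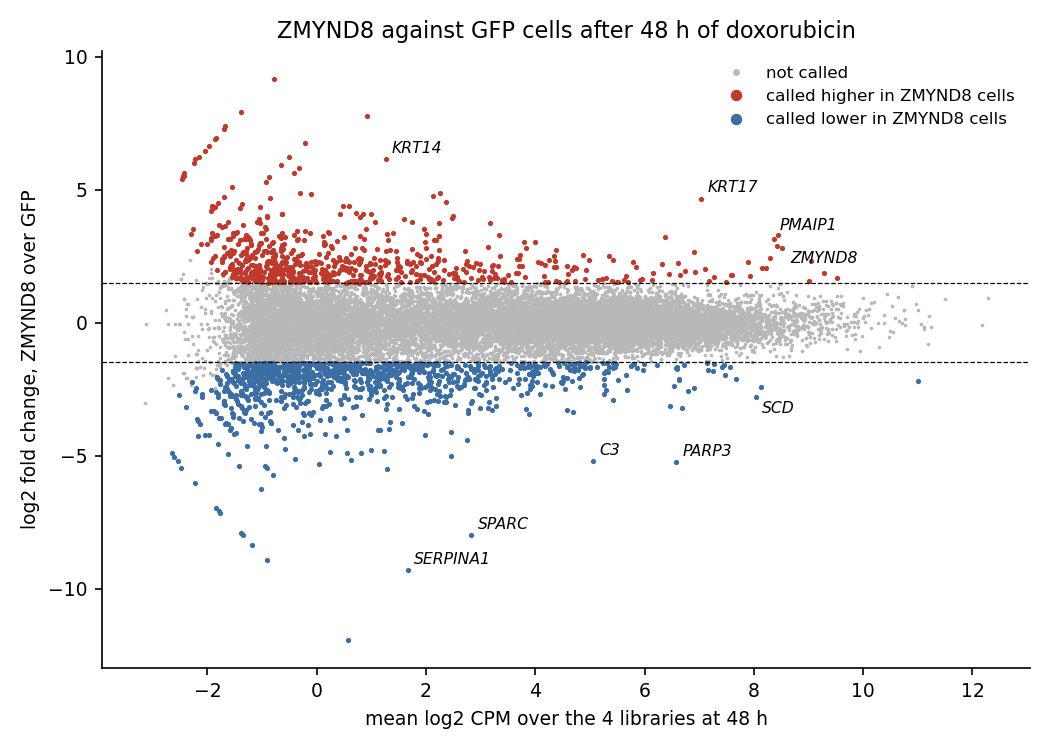
Fitted log2 fold change of ZMYND8 over GFP cells after 48 h of doxorubicin (vertical axis) against the mean log2 CPM of the gene over the 4 libraries (horizontal axis), 1 point per gene tested, with dashed lines at a log2 fold change of 1.5 in each direction. The 685 genes called higher are red and the 1057 called lower are blue, and fold changes of the sparse genes at the left depend on the prior count of the fit.

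ZMYND8 itself (ENSG00000101040.19, chr20:47209214-47356889, minus strand, hg38) stood at 139 and 141 CPM in the GFP libraries and at 1001 and 924 CPM in the ZMYND8 libraries. Its log2 fold change was 2.79 (SE 0.0470, adjusted p = 7.2e-26), a 6.89-fold difference with no overlap between the lines. Reads of the transgene and of the endogenous gene are counted together, and GFP is not in the annotation, so the label of the control line could not be checked in the counts.

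In a list of 33 genes, made up of ZMYND8 itself with its partners and enzymes of histone marks, 15 rose and 8 fell, with a median of 0.14, and the 1 member called higher, counted among the rises, was ZMYND8. KDM5C, which removes methyl groups from lysine 4 of histone H3, stood at 89.9 and 91.1 CPM in GFP cells and 175 and 169.9 CPM in ZMYND8 cells (log2 fold change 0.93, SE 0.0473, adjusted p = 2.1e-15). KDM6A, which acts on lysine 27, went from 33.4 and 33.2 to 85.5 and 83.97 CPM (1.35, SE 0.0534, adjusted p = 1.2e-17). Both genes lie on the X chromosome, where a long stretch of neighbouring genes was also higher in ZMYND8 cells, as described further on, and the part of that stretch in these values was not tested. KDM6B, a lysine 27 demethylase on chromosome 17, stood at 40.5 and 40.8 CPM against 92.4 and 90.9 CPM (1.17, SE 0.0549, adjusted p = 3.7e-16), with both ZMYND8 libraries above both GFP libraries. EZH2, the methyltransferase for lysine 27, had 90.2 and 85.2 CPM in GFP cells and 122 and 123 CPM in ZMYND8 cells (0.49), and KMT2A, a lysine 4 methyltransferase, 100.5 and 108 against 130.1 and 146 CPM (0.41). The falls were led by the acetyltransferase KAT2B (−0.86), the hypoxia factor HIF1A (−0.65), the NuRD subunit RBBP4 (−0.59) and the CoREST subunit RCOR1 (−0.54).

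The bromodomain readers of the BET family parted. BRDT, the member normally restricted to the testis, stood at 0.977 and 0.631 CPM in the GFP libraries and 21.1 and 22.4 CPM in the ZMYND8 libraries (4.75, SE 0.164, adjusted p = 5.2e-18). BRD2 (−0.69) and BRD3 (−0.25) fell. BRDT thus moved against these widely expressed relatives and by far more.

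Among genes with a mean log2 CPM of at least 1, the largest rise was in KRT14 (ENSG00000186847.6, chr17:41582279-41586895, minus strand), the keratin of basal epithelial cells. It had 0.266 and 0.210 CPM in GFP cells and 16.3 and 17.99 CPM in ZMYND8 cells (log2 fold change 6.14, SE 0.260, adjusted p = 4.1e-17). KRT17, a keratin of basal and wounded epithelium, was far more abundant, with 27.03 and 24.9 CPM in the GFP libraries and 664 and 651 CPM in the ZMYND8 libraries (4.66, SE 0.0589, adjusted p = 1.8e-28). Both keratins were near absent or low in both GFP libraries and high in both ZMYND8 libraries. PTGS2, which encodes the prostaglandin-forming cyclooxygenase 2, stood at 0.666 and 1.01 CPM against 25.9 and 23.6 CPM (4.87, SE 0.178). HSPA6, a stress-induced HSP70, stood at 0.621 and 1.47 CPM against 24.03 and 25.5 CPM (4.54, SE 0.157). Its GFP replicates were low and apart, and the fold change was 4.06 without GFP replicate 1 and 5.30 without GFP replicate 2. IDO1, which degrades tryptophan and restrains T cells, was at 1.33 and 1.39 CPM in GFP cells and 22.2 and 21.4 CPM in ZMYND8 cells (3.99).

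The other large rises included secreted and developmental factors. SERPINB2, a plasminogen activator inhibitor, was at 1.51 and 1.26 CPM in GFP and 21.997 and 19.9 CPM in ZMYND8 cells. The bone morphogenetic protein BMP2 was at 0.621 and 0.841 against 12.2 and 10.1 CPM. For the follistatin-like gene FSTL5 the values were 0.444 and 0.421 against 7.81 and 7.19 CPM. Their log2 fold changes were 3.92, 3.91 and 4.10, and in each case the libraries of the lines did not overlap. The homeobox gene IRX2 (3.78), the carboxylesterase CES1 (3.76) and the X-linked amino acid transport partner CLTRN (3.76) complete the 12 largest rises, with adjusted p-values of 2.6e-15, 4.5e-13 and 3.3e-15.

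**Figure D2:**
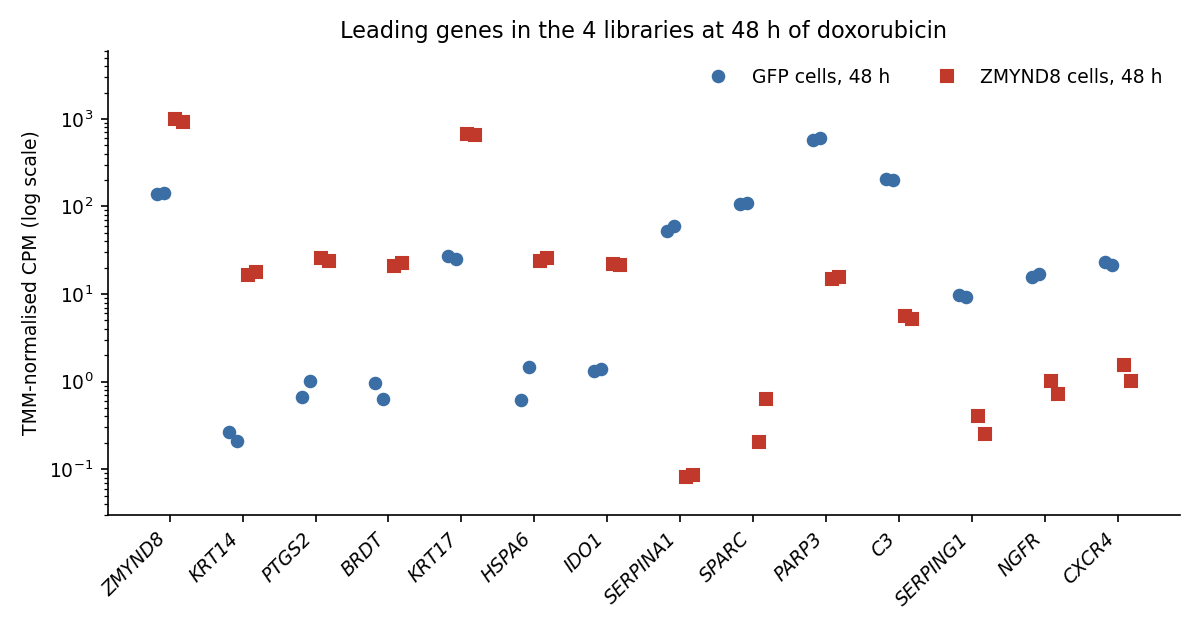
Level of 14 leading genes in each of the 4 libraries after 48 h of doxorubicin, as TMM-normalised CPM on a log scale (vertical axis), with GFP libraries as blue circles and ZMYND8 libraries as red squares. In each of these genes both libraries of a line lie on the same side of the other line, for instance PARP3 at 569.7 and 606 CPM in GFP cells and 15.004 and 15.7 CPM in ZMYND8 cells.

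At the same minimum level, the largest falls were in SERPINA1 and SPARC, which encode secreted proteins. SERPINA1 (chr14:94376747-94390693, minus strand) encodes alpha-1-antitrypsin, the inhibitor of neutrophil elastase. It had 2619 counts over the GFP libraries (52.7 and 60.2 CPM) and 4 over the ZMYND8 libraries (0.0813 and 0.0851 CPM), a ratio of 680.2 with a 95% counting interval (exact binomial) of 265 to 2498. Such intervals, and floors set by a count of 0, cover counting error only. SPARC (chr5:151661096-151686975, minus strand), a collagen-binding matrix protein, stood at 107 and 109 CPM in GFP cells and 0.203 and 0.638 CPM in ZMYND8 cells (256-fold lower, adjusted p = 7.2e-26). Both genes were below 1 CPM in both ZMYND8 libraries, and the log2 fold change of SPARC was −7.39 without ZMYND8 replicate 1 and −9.01 without ZMYND8 replicate 2.

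PARP3 (chr3:51942345-51948867, plus strand), a poly(ADP-ribose) polymerase active at DNA breaks, had 569.7 and 606 CPM in GFP cells and 15.004 and 15.7 CPM in ZMYND8 cells (−5.26, SE 0.0543, adjusted p = 3.1e-30), a 38.3-fold lower level. The central complement protein C3 stood at 204 and 202 CPM against 5.61 and 5.23 CPM (−5.22, SE 0.0630, adjusted p = 8.1e-29). SERPING1, the inhibitor of complement C1, followed the same direction at 9.77 and 9.17 against 0.407 and 0.255 CPM (−4.81). In PARP3 and C3 the replicates of each line lay close together. SERPING1 was sparse in the ZMYND8 libraries, and its fold change ran from −5.18 to −4.52 over fits that each left out a library. In each of these genes no GFP library came near a ZMYND8 library. The receptors among the largest falls were ADGRF1, an adhesion receptor (27.7 and 32.3 against 1.06 and 0.766 CPM, −5.03), NGFR, the neurotrophin receptor (15.7 and 16.99 against 1.02 and 0.723 CPM, −4.22), and CXCR4, the receptor for CXCL12 (23.1 and 21.7 against 1.55 and 1.02 CPM, −4.11). NYNRIN (−5.52), the protease inhibitor SPINK4 (−4.43), the phosphatase PTPN22 (−4.03) and LRRN4 (−4.04) were the other 4. LRRN4 had 0.163 and 0.936 CPM in the ZMYND8 libraries, and its fold change was −3.26 without replicate 1 of that line and −5.74 without replicate 2.

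Several further genes outside these 24 were singled out after their values had been seen. MIR30A (ENSG00000207827.1), the hairpin gene of microRNA 30a, had 512 and 565 counts in the GFP libraries (22.7 and 23.8 CPM) and 0 and 0 in the ZMYND8 libraries, at least 186-fold lower against a floor of 3 counts per library. Its counts were also 0 in both ZMYND8 libraries without the drug and in both control libraries of the transiently transfected cells, whereas the GFP line had 41.5 and 35.9 CPM without the drug. The level was therefore high in the GFP line and not detected in the others. The counts come from mRNA libraries and do not measure the mature microRNA. The hairpin lies at chr6:71403551-71403621 on the minus strand (GRCh38.p14, RefSeq), within LINC00472, a long noncoding RNA gene of the same strand, and it yields the mature strands at chr6:71403595-71403616 and chr6:71403554-71403575. They are shown because the hairpin gene was not detected in ZMYND8 cells, with bases 2 to 8 of each mature strand, the seed that pairs with target mRNAs, in capitals.
miR-30a hairpin: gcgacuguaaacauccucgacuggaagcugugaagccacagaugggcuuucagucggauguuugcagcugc
miR-30a-5p: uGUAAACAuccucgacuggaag
miR-30a-3p: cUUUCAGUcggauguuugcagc

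LINC00472 (chr6:71343427-71420745, minus strand), which spans this hairpin, moved the other way, with 20.8 and 25.2 CPM in GFP cells and 44.04 and 39.9 CPM in ZMYND8 cells (0.87, SE 0.0845, adjusted p = 1.1e-09). MYO1G, a myosin of blood cells, had 3 and 1 counts in the GFP libraries and 19.3 and 20.9 CPM in the ZMYND8 libraries, a ratio of 232 (95% counting interval 90.4 to 854), and its fitted log2 fold change of 7.76 was 8.70 without GFP replicate 1 and 7.17 without GFP replicate 2. The chemokine receptor CCR7 stood at 0.355 and 0.210 CPM against 4.96 and 4.68 CPM (4.07, SE 0.408, adjusted p = 1.6e-09). KRT16P6, a keratin pseudogene to which reads of other keratins may be assigned, had 1 and 1 counts against 119 and 133, a ratio of 121 (interval 33.2 to 1007). In all 4 genes both ZMYND8 libraries were above both GFP libraries.

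Immediate early genes were higher in ZMYND8 cells almost as a group. These genes encode transcription factors of the AP-1 and EGR families and the phosphatases that limit the MAP kinases which induce them. Of 26 tested, 23 rose and 1 fell, with a median log2 fold change of 0.85 beside −0.04 over all genes, and untreated cells had 0.87. FOS stood at 9.23 and 7.53 CPM in GFP cells and 46.4 and 40.1 CPM in ZMYND8 cells (2.37, SE 0.108, adjusted p = 2e-16). ATF3, a stress-induced member of the family, stood at 36.4 and 37.3 against 172 and 169 CPM (2.21, SE 0.0513, adjusted p = 1.1e-22). DUSP1, which switches off MAP kinases, stood at 72.4 and 63.7 against 269 and 286 CPM (2.03). Each of these 3 genes was about as high in one ZMYND8 replicate as in the other, and EGR3 rose as well (1.89). JUND, the constitutively made member, was the exception at 219 and 216 against 189 and 194 CPM (−0.18, adjusted p = 0.0015). In the 250 bases before the transcription start the AP-1 letters TGANTCA occurred in 0 of 20 members with a listed promoter and in 6.6% of all 27305 promoters, and the cAMP response element TGACGTCA in 2 of 20 (DUSP1 and JUND) and 1.77% of all.

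Cytokines and other NF-kB targets went in both directions. Of 26 tested, 9 rose and 14 fell, with a median of −0.33. The neutrophil chemokines CXCL8 and CXCL1 were lower in ZMYND8 cells. CXCL8 stood at 33.5 and 34.7 CPM in GFP cells and 4.84 and 5.53 CPM in ZMYND8 cells (−2.72, SE 0.116, adjusted p = 5.7e-17), and CXCL1 at 13.98 and 13.5 against 2.03 and 1.45 CPM (−2.97, SE 0.152, adjusted p = 2.1e-15). The inflammatory cytokine IL1A fell with them, from 4.62 and 5.26 to 1.30 and 1.32 CPM (−1.91). The interferon-induced chemokines CXCL11 and CXCL10, which attract T cells, were higher. CXCL11 stood at 5.55 and 5.01 CPM against 36.7 and 37.8 CPM (2.82, SE 0.126, adjusted p = 1.4e-16), while CXCL10 was low in both lines at 0.621 and 0.715 against 3.01 and 2.30 CPM (1.98, adjusted p = 0.00012). CCL5 passed the threshold at 2.77 (adjusted p = 0.0004) through 1 library, since its level was 1.24 and 0.925 CPM in GFP and 13.7 and 1.06 CPM in ZMYND8 cells, and the fold change was −0.02 without ZMYND8 replicate 1.

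Interferon-stimulated genes went in both directions. Of 48 tested, 21 rose and 24 fell, 12 of them called higher and 5 called lower, with a median of −0.06. OASL, an antiviral relative of the oligoadenylate synthetases, stood at 128 and 124 CPM in GFP cells and 944 and 913 CPM in ZMYND8 cells (2.88, SE 0.0449, adjusted p = 1.9e-26). IFI44 was at 47.9 and 47.5 against 301 and 293 CPM (2.64, SE 0.0440, adjusted p = 6.3e-26), and the growth-restraining antiviral factor SAMD9 at 129.6 and 140.3 against 743 and 717 CPM (2.44, SE 0.0456, adjusted p = 8.3e-25). IFIT2, which binds viral RNA, rose to a similar degree (2.30). Against these, the membrane protein IFITM1 fell from 98.9 and 94.8 to 15.04 and 14.7 CPM (−2.70, SE 0.0658, adjusted p = 3e-22). The guanylate-binding protein GBP2 fell from 35.2 and 36.2 to 5.57 and 5.70 CPM (−2.66, SE 0.0831), its relative GBP1 from 59.2 and 56.4 to 28.6 and 28.1 CPM (−1.03), and XAF1 (−1.77) and IFI35 (−1.64) fell as well. Within each of these genes the replicates of a line lay close together and the lines were well apart.

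Members of the same family thus differed in sign, and the promoters shown here come from both sides. The core of the interferon-stimulated response element, searched on both strands as GAAA, any 2 bases and GAAA again, in the 250 bases before the start, occurred in 3.07% of all 27305 RefSeq promoters. It was present in 25 of the 39 list members with a listed promoter (64.1%), in 13 of 17 that rose (76.5%) and in 11 of 19 that fell (57.9%). Capitals mark the match in each sequence (GRCh38.p14), and a match is a description of letters, not evidence of binding. IFI44 (chr1:78649539-78649788, plus strand) and SAMD9 (chr7:93117980-93118229, minus strand) rose, and IFITM1 (chr11:313790-314039, plus strand) and GBP1 (chr1:89065209-89065458, minus strand) fell.
IFI44: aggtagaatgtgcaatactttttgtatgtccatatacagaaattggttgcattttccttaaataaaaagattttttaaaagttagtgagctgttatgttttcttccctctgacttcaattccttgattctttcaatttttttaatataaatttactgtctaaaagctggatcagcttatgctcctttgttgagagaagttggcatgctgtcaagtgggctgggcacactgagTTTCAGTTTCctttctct
SAMD9: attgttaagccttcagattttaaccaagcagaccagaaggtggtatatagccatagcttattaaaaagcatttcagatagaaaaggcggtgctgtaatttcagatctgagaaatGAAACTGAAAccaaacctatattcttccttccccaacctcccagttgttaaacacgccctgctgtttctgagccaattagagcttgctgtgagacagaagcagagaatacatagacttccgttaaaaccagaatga
IFITM1: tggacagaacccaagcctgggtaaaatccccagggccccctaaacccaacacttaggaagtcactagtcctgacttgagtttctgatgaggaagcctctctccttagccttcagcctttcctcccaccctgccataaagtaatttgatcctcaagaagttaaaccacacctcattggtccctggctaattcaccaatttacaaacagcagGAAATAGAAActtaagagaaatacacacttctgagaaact
GBP1: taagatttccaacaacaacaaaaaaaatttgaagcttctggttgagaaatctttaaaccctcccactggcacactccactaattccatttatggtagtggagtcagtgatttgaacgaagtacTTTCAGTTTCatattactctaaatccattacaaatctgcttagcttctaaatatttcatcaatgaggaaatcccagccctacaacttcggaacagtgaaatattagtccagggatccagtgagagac

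Upstream of these genes, 23 sensors of nucleic acid and regulators of interferon were tested, of which 7 rose and 8 fell, with a median of −0.01. The type III interferon IFNL1 stood at 0.710 and 0.715 CPM in GFP cells and 7.28 and 7.19 CPM in ZMYND8 cells (3.33, SE 0.313, adjusted p = 4.7e-10). AIM2, a sensor of cytosolic DNA, stood at 5.06 and 5.89 against 32.2 and 30.8 CPM (2.52), and IFIH1, a sensor of long RNA duplexes, at 35.1 and 35.04 against 111 and 109 CPM (1.65). Falls in the group were found in TLR3, also a sensor of RNA (6.44 and 7.91 against 4.11 and 3.79 CPM, −0.86), the adaptor STING1 (144 and 142 against 86.9 and 83.7 CPM, −0.74), the kinase IKBKE (−1.22) and the receptor kinase TYK2 (−0.48). The MHC class I and antigen processing genes were lower where they passed the test. Of 14 tested, 0 rose and 9 fell, with a median of −0.52, among them HLA-B at 112 and 117 CPM in GFP cells and 43.95 and 40.03 CPM in ZMYND8 cells (−1.45, adjusted p = 2.9e-16) and the immunoproteasome subunit PSMB10 (−0.96).

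Genes of cholesterol and fatty acid synthesis were lower in ZMYND8 cells. SREBP factors drive this pathway when sterols run short. Of 33 tested, 2 rose and 28 fell, with a median of −0.79. The 2 that rose were the X-linked sterol isomerase EBP (0.33) and the kinase PMVK (0.32). SCD, the desaturase that makes oleic acid, stood at 699 and 684 CPM in GFP cells and 95.3 and 105 CPM in ZMYND8 cells (−2.78, SE 0.0460, adjusted p = 5.7e-26). SQLE, which oxidises squalene, stood at 52.8 and 55.4 against 11.9 and 11.7 CPM (−2.20), and the sterol reductase TM7SF2 at 30.9 and 27.003 against 7.24 and 6.21 CPM (−2.10). Each of these was several times lower in both ZMYND8 libraries. The inverted CCAAT box that binds NF-Y, a partner of SREBP, was searched as ATTGG on both strands and occurred in 33% of all promoters, in 18 of 26 members with a listed promoter (69.2%) and in 17 of 21 that fell (81%). The sterol regulatory element TCACNCCAC occurred in 0.875% of all promoters and in 1 of the 26. The promoters of SCD (chr10:100346983-100347232, plus strand) and TM7SF2 (chr11:65111622-65111871, plus strand) show the CCAAT letters in capitals.
SCD: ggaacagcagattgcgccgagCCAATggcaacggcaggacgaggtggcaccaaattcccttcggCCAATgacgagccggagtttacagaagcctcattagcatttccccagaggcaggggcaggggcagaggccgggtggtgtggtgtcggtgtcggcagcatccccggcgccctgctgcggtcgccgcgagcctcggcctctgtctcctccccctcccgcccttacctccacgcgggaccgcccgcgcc
TM7SF2: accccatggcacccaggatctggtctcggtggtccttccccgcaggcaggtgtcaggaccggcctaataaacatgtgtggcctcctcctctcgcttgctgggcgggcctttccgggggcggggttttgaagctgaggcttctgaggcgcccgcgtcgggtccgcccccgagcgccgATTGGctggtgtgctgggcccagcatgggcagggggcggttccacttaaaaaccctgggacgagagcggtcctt

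Most genes of hypoxia and glycolysis that passed the test were lower in ZMYND8 cells. Of 36 tested, 4 rose and 26 fell, with a median of −0.44. Carbonic anhydrase CA12 stood at 23.9 and 24.02 CPM in GFP cells and 2.93 and 2.21 CPM in ZMYND8 cells (−3.21, SE 0.129, adjusted p = 1.4e-17), and the aldolase ALDOC at 10.96 and 11.7 against 2.24 and 2.64 CPM (−2.22). The glycolytic regulator PFKFB4 (−1.30) and the lysyl oxidase LOX (−1.29) were lower too. ADM, the vasodilator adrenomedullin, was the largest of the 4 rises, at 71.3 and 69.2 against 145 and 135 CPM (1.00, adjusted p = 8.8e-16). The others were ANKRD37 (0.78) and the glycolytic enzymes HK2 (0.34) and PGK1 (0.31).

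Genes of DNA replication were lower in ZMYND8 cells by modest amounts. The E2F factors switch these genes on at the entry to S phase. Of 50 tested, 7 rose and 39 fell, with a median of −0.55 beside −0.04 over all genes. POLE, the catalytic subunit of the leading-strand polymerase, stood at 147 and 161 CPM in GFP cells and 63.8 and 66.1 CPM in ZMYND8 cells (−1.25, SE 0.0559, adjusted p = 1.5e-16). MCM6, a subunit of the replicative helicase, stood at 129 and 132 against 56.5 and 55.3 CPM (−1.23, SE 0.0488, adjusted p = 1.2e-17). In both genes both GFP libraries were more than 2 times as high as either ZMYND8 library. The rises were led by cyclin E1, CCNE1 (17.7 and 17.1 against 32.3 and 34.6 CPM, 0.94), and by the X-linked polymerase subunit POLA1 (0.77). The E2F letters TTTNNCGC, on both strands, occurred in 5.93% of all promoters and in 20 of 43 members with a listed promoter (46.5%), 15 of 34 that fell (44.1%) and 2 of 5 that rose. They are in capitals in the promoters of MCM6 (chr2:135876444-135876693, minus strand), where matches overlap, and POLE (chr12:132687343-132687592, minus strand).
MCM6: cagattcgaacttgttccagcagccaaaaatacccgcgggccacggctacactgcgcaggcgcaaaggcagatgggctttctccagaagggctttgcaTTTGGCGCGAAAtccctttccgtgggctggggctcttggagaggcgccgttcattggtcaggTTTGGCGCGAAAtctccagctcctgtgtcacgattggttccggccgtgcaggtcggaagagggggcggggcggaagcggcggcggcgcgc
POLE: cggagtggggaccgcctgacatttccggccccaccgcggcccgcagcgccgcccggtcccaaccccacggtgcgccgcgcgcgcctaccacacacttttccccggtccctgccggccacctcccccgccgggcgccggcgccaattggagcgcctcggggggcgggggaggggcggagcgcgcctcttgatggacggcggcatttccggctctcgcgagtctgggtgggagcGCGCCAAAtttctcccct

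Mitotic and repair genes were divided. Of 46 genes of mitosis and G2/M, 14 rose and 22 fell, with a median of −0.08. The proliferation marker MKI67 stood at 253 and 256 CPM in GFP cells and 395 and 398 CPM in ZMYND8 cells (0.64), whereas the kinesin KIF11 stood at 188 and 194 against 121 and 123 CPM (−0.65) and the kinetochore gene SPC24 at 49.7 and 45.97 against 21.6 and 20.1 CPM (−1.20). The pattern in the 42 genes of homologous recombination, the Fanconi pathway and checkpoints was alike in kind, as 9 rose and 18 fell, with a median of −0.10. The kinase CHEK1 fell from 98.6 and 93.8 to 56.1 and 56.7 CPM (−0.77), and FANCD2, which marks crosslink repair, fell too (−0.73). On the other side stood the X-linked Fanconi gene FANCB (1.32), FANCF (1.07) and the kinase CHEK2 (0.92).

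Of 29 targets of p53, 11 rose and 11 fell, and the median was 0.12. PMAIP1, the cell-death gene NOXA, was the largest change at 105 and 116 CPM in GFP cells and 975 and 984 CPM in ZMYND8 cells (3.15, SE 0.0496, adjusted p = 2.1e-26). The nuclease AEN (1.41), the kinase PLK2 (1.02) and GADD45A (0.88) rose with it. The translesion polymerase POLH fell from 68.3 and 71.2 to 25.8 and 23.7 CPM (−1.49) and the damage-recognition gene DDB2 from 36.04 and 33.9 to 12.2 and 12.6 CPM (−1.49). CDKN1A, the cell-cycle inhibitor p21, stood at 447 and 446 CPM against 263 and 256 CPM (−0.79, SE 0.0394, adjusted p = 1.6e-15). It belongs to 13 D cyclins and inhibitors of cyclin-dependent kinases, of which 3 rose and 5 fell, with a median of −0.09.

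In the BCL2 family, which sets the threshold for apoptosis, 6 rose and 7 fell of 15 tested and the median was −0.02. The survival gene MCL1, whose product NOXA antagonises, stood at 354 and 361 CPM in GFP cells and 728 and 718 CPM in ZMYND8 cells (1.01, SE 0.0379, adjusted p = 3.3e-18). BCL2 itself, also protective, rose by 0.93, and the death-promoting HRK by 1.24. BMF, another death-promoting member, fell from 18.3 and 16.8 to 5.45 and 5.19 CPM (−1.72, SE 0.104, adjusted p = 7.8e-14). The other falls among the 4 largest were the death-promoting BIK (−1.32), BOK (−0.76) and BID (−0.49).

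Most of the matrix and protease genes that passed the test were lower in ZMYND8 cells. Of 45 collagen, laminin and integrin genes, 8 rose and 25 fell, with a median of −0.37. COL6A3 fell from 18.2 and 20.02 to 3.86 and 4.98 CPM (−2.12) and COL1A1 from 22.2 and 21.5 to 7.20 and 8.81 CPM (−1.45), while the collagen COL5A3 rose from 0.0888 and 0.294 to 1.63 and 1.45 CPM (2.95, 2.36 without GFP replicate 1 and 4.02 without GFP replicate 2) and the epithelial laminin chain LAMB3 from 272 and 265 to 418 and 430.5 CPM (0.66). Of 21 matrix metalloproteinases and their inhibitors, 2 rose and 15 fell, with a median of −0.94. The stromelysin MMP3 stood at 7.46 and 5.93 CPM in GFP cells and 1.504 and 1.28 CPM in ZMYND8 cells (−2.26), and the collagenase MMP8 at 2.44 and 1.89 against 0.325 and 0.510 CPM (−2.36). The 2 rises were ADAMTS1 (5.59 and 5.22 against 14.3 and 13.7 CPM, 1.37) and the X-linked inhibitor TIMP1 (177 and 171 against 307 and 297 CPM, 0.79). Among 15 serpins and genes of the urokinase system, 3 rose and 9 fell, with a median of −0.39. PLAT, the tissue plasminogen activator, fell from 316 and 315 to 34.8 and 32.8 CPM (−3.22, SE 0.0467, adjusted p = 3.6e-27), whereas the urokinase receptor PLAUR rose from 85.9 and 82.6 to 129.99 and 131 CPM (0.63).

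Neither the epithelial nor the mesenchymal genes moved as a block. Of 33 epithelial genes, 6 rose and 16 fell, with a median of −0.56, and of 26 mesenchymal genes, 8 rose and 10 fell, with a median of −0.08. Among keratins KRT81 (9.06 and 7.87 against 45.7 and 49.6 CPM, 2.50), KRT14 and KRT17 rose, while KRT19 (−1.60), KRT18 (−0.56) and KRT8 (−0.41) fell. E-cadherin, CDH1, stood at 10.4 and 11.02 CPM in GFP cells and 20.1 and 21.7 CPM in ZMYND8 cells (0.96, SE 0.133, adjusted p = 5.4e-07). The adhesion molecule EPCAM was the reverse, at 29.8 and 27.003 against 8.13 and 6.89 CPM (−1.91), as were the membrane protease ST14 (−1.86) and the tight junction gene CLDN3 (−1.77). On the mesenchymal side the matrix protein TGFBI fell from 281 and 263 to 46.9 and 44.4 CPM (−2.58, SE 0.0515, adjusted p = 3.8e-24) and the collagen crosslinker LOXL2 from 352 and 347 to 89.4 and 91.2 CPM (−1.95). The repressor SNAI2 rose from 30.1 and 33.7 to 71.03 and 74.95 CPM (1.19), its relative ZEB1 was at 50.5 and 51.8 against 50.5 and 48.2 CPM (−0.05, adjusted p = 0.41), and vimentin, VIM, rose slightly from 2206 and 2106 to 2639 and 2535 CPM (0.26). TWIST1 was too low to be tested.

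The clustered protocadherins, surface molecules of neurons that many cancers silence, were low in both lines. Of 26 tested, 0 rose and 17 fell, with a median of −1.84, or −1.41 with 9 sparse genes at their bound. PCDHB16 stood at 2.84 and 3.49 CPM in GFP cells and 0.569 and 0.170 CPM in ZMYND8 cells (−3.06), and leaving out ZMYND8 replicate 1 gave −4.17 and leaving out ZMYND8 replicate 2 gave −2.47. Of 14 HOX genes tested, 4 rose and 1 fell, with a median of 0.20.

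Stemness and drug resistance, which the study had in view, gave a mixed account. Of 17 stemness genes, 6 rose and 5 fell, with a median of −0.02. CD44 stood at 686 and 675 CPM in GFP cells and 539 and 512 CPM in ZMYND8 cells (−0.37, SE 0.0391, adjusted p = 4.1e-09), and CD24 at 45.5 and 40.5 against 81.9 and 76.7 CPM (0.89, SE 0.0614, adjusted p = 1.3e-12). The level of CD44, a mark of breast cancer stem cells, was thus lower and that of CD24, which such cells lack, higher in both ZMYND8 libraries. The polycomb gene BMI1 rose by 0.36, the reprogramming factor KLF4 from 106 and 105 to 293 and 311 CPM (1.51) and the Notch ligand JAG1 from 72.5 and 75.1 to 134 and 138 CPM (0.88). The retinal dehydrogenase ALDH1A3 fell from 17.7 and 19.1 to 9.23 and 8.64 CPM (−1.04), and EPCAM, also of this list, is given above. LGR5, a receptor of stem cells, was sparse and fell from 0.799 and 0.589 to 0.203 and 0.128 CPM (−2.02, adjusted p = 0.0089), a fall that missed the threshold without GFP replicate 1 (−1.79), ZMYND8 replicate 1 (−2.38) or ZMYND8 replicate 2 (−1.74). SOX9 was at 118 and 114 against 115 and 104 CPM (−0.08, adjusted p = 0.21, and −0.16, past the threshold, without ZMYND8 replicate 1), NOTCH1 at 50.8 and 46.8 against 50.4 and 50.3 CPM (0.05, adjusted p = 0.62) and ALDH1A1 at 1.15 and 0.421 against 0.854 and 0.425 CPM (−0.28, adjusted p = 0.69). The levels of these 3 overlapped between the lines, and at those of ALDH1A1 only large differences can be seen. POU5F1, NANOG and SOX2 were not expressed enough to be tested.

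Of 17 drug transporters including the vault protein gene MVP, 3 rose and 7 fell, with a median of −0.33. ABCG2, which exports doxorubicin among other drugs, stood at 3.11 and 2.48 CPM in GFP cells and 9.39 and 10.3 CPM in ZMYND8 cells (1.82, SE 0.158, adjusted p = 1.1e-10). Among related transporters ABCC4 rose slightly (0.19) and ABCC10 fell (−0.71). The 3 drug resistance genes that the study names did not pass the threshold. P-glycoprotein, ABCB1, was at 0.488 and 0.883 against 0.447 and 0.553 CPM (−0.46, adjusted p = 0.5), ABCC1 at 8.39 and 10.4 against 8.99 and 10.1 CPM (0.02, adjusted p = 0.94) and ABCC2 at 2.18 and 2.40 against 2.60 and 2.55 CPM (0.17, adjusted p = 0.55). The sterol exporter ABCG1 fell from 7.90 and 8.75 to 1.42 and 1.62 CPM (−2.45). Among 23 topoisomerases, reductases and redox enzymes that act on or with doxorubicin, 4 rose and 15 fell, with a median of −0.29. The aldo-keto reductase AKR1C1, which converts such drugs to alcohols, rose from 1.73 and 1.81 to 11.5 and 12.3 CPM (2.74, adjusted p = 1.3e-14) and AKR1C2 by 1.69. The oxidase subunit CYBA fell from 180.1 and 162 to 74.9 and 73.7 CPM (−1.20) and the heme oxygenase HMOX1 fell with it (−0.96).

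The DNA damage genes that the study names differed little at this time. BRCA1 stood at 127 and 131 CPM in GFP cells and 113 and 107 CPM in ZMYND8 cells (−0.22, adjusted p = 0.00023) and the checkpoint mediator CLSPN at 169 and 183 against 154 and 143 CPM (−0.24, adjusted p = 0.00067). The replication initiator MCM10 was at 111 and 123 against 107 and 104 CPM (−0.15, adjusted p = 0.015), a difference that missed the threshold without GFP replicate 2 (−0.08) or ZMYND8 replicate 2 (−0.13). The phosphatase CDC25A (−0.08, adjusted p = 0.14) and the clamp-loader subunit RFC3 (0.09, adjusted p = 0.11) did not pass, although RFC3 did, at 0.12, in a fit of only the 4 libraries.

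Transcripts of the translation machinery and of mitochondria were higher in ZMYND8 cells. Of 75 cytosolic ribosomal protein genes, 69 rose and 2 fell, with a median of 0.44, and the 2 that fell were RPL13 (−0.23) and RPL15 (−0.15). RPL11, which also restrains MDM2, stood at 301 and 309 CPM in GFP cells and 644 and 608 CPM in ZMYND8 cells (1.04, SE 0.0413, adjusted p = 1.2e-17), and the X-linked RPL39 at 42.9 and 43.6 against 125 and 108 CPM (1.43). All 13 mRNAs of the mitochondrial genome rose, with a median of 0.70, and the cytochrome oxidase subunit MT-CO1 stood at 3616 and 3603 against 7197 and 6464 CPM (0.92). Zinc finger genes, many of which encode KRAB repressors of repeats, also leaned upward. Of 220 on chromosome 19, 142 rose and 10 fell (median 0.49), and of 213 elsewhere, 132 rose and 26 fell (median 0.38), beside −0.04 over all genes. ZNF738 went from 6.70 and 5.76 to 27.4 and 26.3 CPM (2.11) and ZNF844 from 9.68 and 10.1 to 27.4 and 23.4 CPM (1.36).

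Chaperone genes were more often higher than lower. Of 24 heat shock proteins and chaperones, 15 rose and 4 fell, with a median of 0.24. HSPH1 stood at 173 and 181 CPM in GFP cells and 365 and 361 CPM in ZMYND8 cells (1.04) and the mitochondrial co-chaperone HSPE1 at 30.3 and 33.4 against 68.3 and 67.8 CPM (1.09), whereas HSPA5, the chaperone of the endoplasmic reticulum, fell (−0.41), as did the cytosolic HSP90AA1 (−0.18), DNAJA1 (−0.18) and HSPA4 (−0.13, and −0.10 without GFP replicate 2, where it missed the threshold). Of 24 genes of the integrated stress response, 9 rose and 11 fell, with a median of −0.12. PPP1R15A, which restores translation after stress, rose from 298 and 303 to 912 and 848 CPM (1.55, adjusted p = 5.4e-21), and PHGDH, the entry enzyme of serine synthesis, fell from 14.2 and 13.4 to 1.59 and 2.59 CPM (−2.72, SE 0.187, adjusted p = 1e-12). Of 31 proteasome subunit genes, 12 rose and 6 fell, with a median of 0.03, and of 11 calcium-binding S100 genes, 5 rose and 2 fell, with a median of 0.36.

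**Figure D3:**
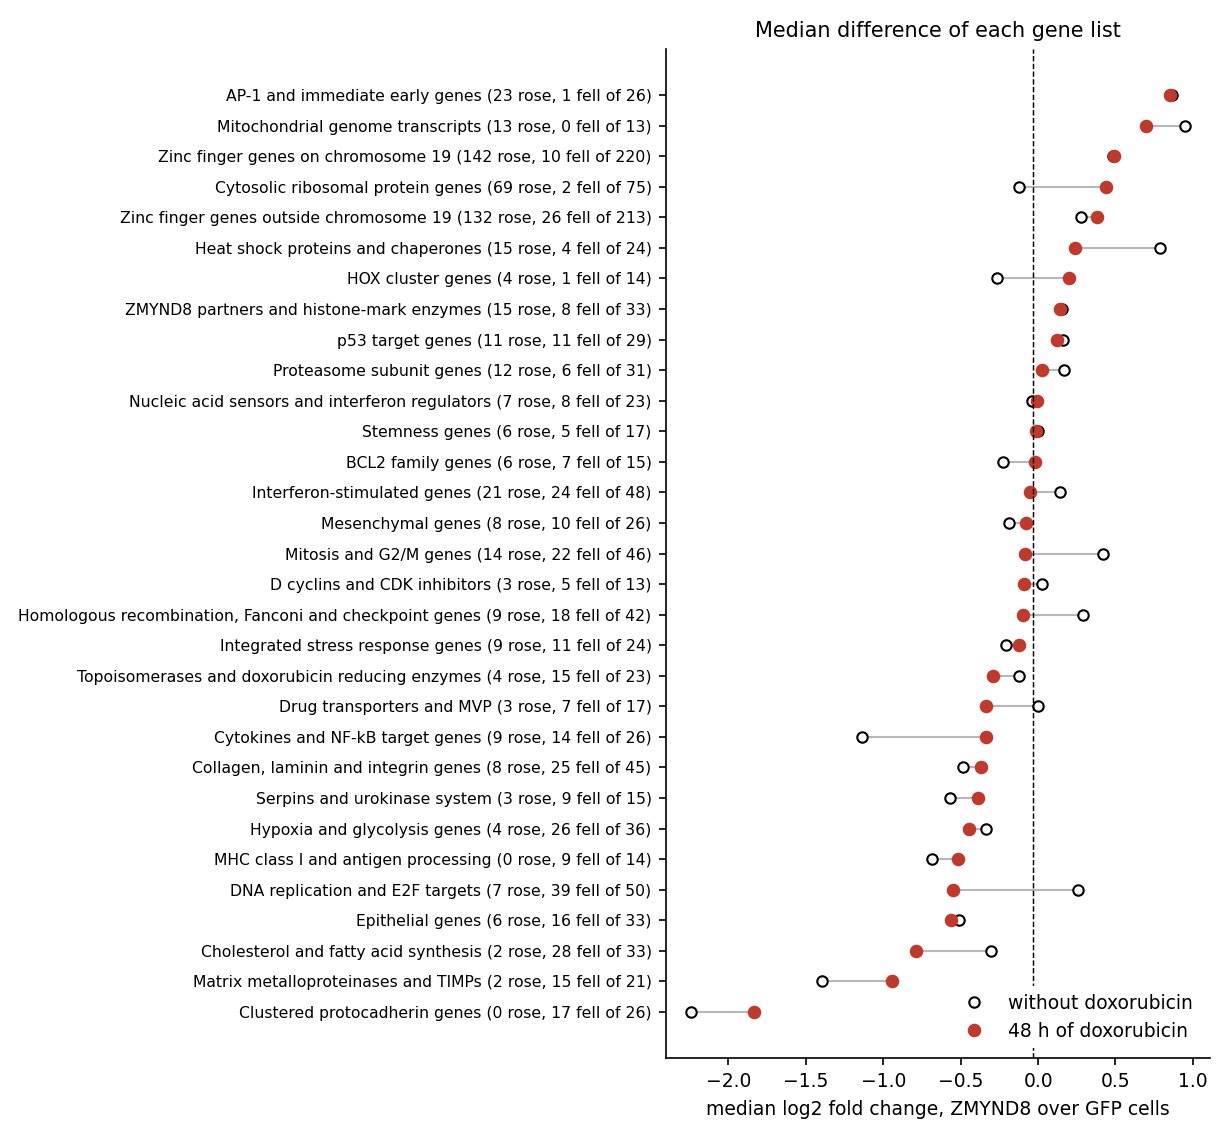
Median log2 fold change of ZMYND8 over GFP cells (horizontal axis) for each gene list with at least 13 genes tested (vertical axis, with the number that rose and fell at 48 h), after 48 h of doxorubicin (red) and without it (open circles), the dashed line marking the median of all genes at 48 h (−0.04). Immediate early genes lie at 0.85 with the drug and 0.87 without it, and the replication genes at −0.55 with it and 0.26 without it.

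Many of the differences at 48 h were present in the lines without doxorubicin, with doxycycline given. The same comparison called 2028 genes (10.8%) in untreated cells and 1873 (9.96%) after 6 h, in libraries not shared with that at 48 h. The list at 48 h and the untreated list had 1035 genes in common, 59.4% of the former and 51.0% of the latter, 1029 with the same direction and 6 with the opposite. With the list at 6 h there were 994 in common (57.1% and 53.1%), and 840 genes were called in all 3 comparisons in 1 direction (48.2% of the list at 48 h). KRT14 stood at 0.101 and 0.211 CPM in GFP cells and 3.57 and 4.60 CPM in ZMYND8 cells without the drug, SERPINA1 at 79.5 and 71.6 against 0.112 and 0.525 CPM, SPARC at 161 and 165 against 1.56 and 0.788 CPM and PARP3 at 609 and 633 against 20.9 and 20.5 CPM. The lines were therefore far apart in these 4 genes before the drug. Across 12999 genes with a mean log2 CPM of at least 1, Pearson's r of the fold changes at 48 h and untreated was 0.82, a description only, since genes are not independent and all libraries share the lines.

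The sizes were smaller at 48 h. The 736 genes called higher in untreated ZMYND8 cells had a median of 2.24 untreated, 1.92 at 6 h and 1.48 at 48 h, and the 1292 called lower had −2.31, −1.99 and −1.59. Since these genes were chosen by their untreated values, part of this decline may come with the choice. Of the genes called at 48 h, 407 had an adjusted p over 0.05 both untreated and at 6 h, and 31 of these differed between 48 h and untreated by the test of that difference.

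**Figure D4:**
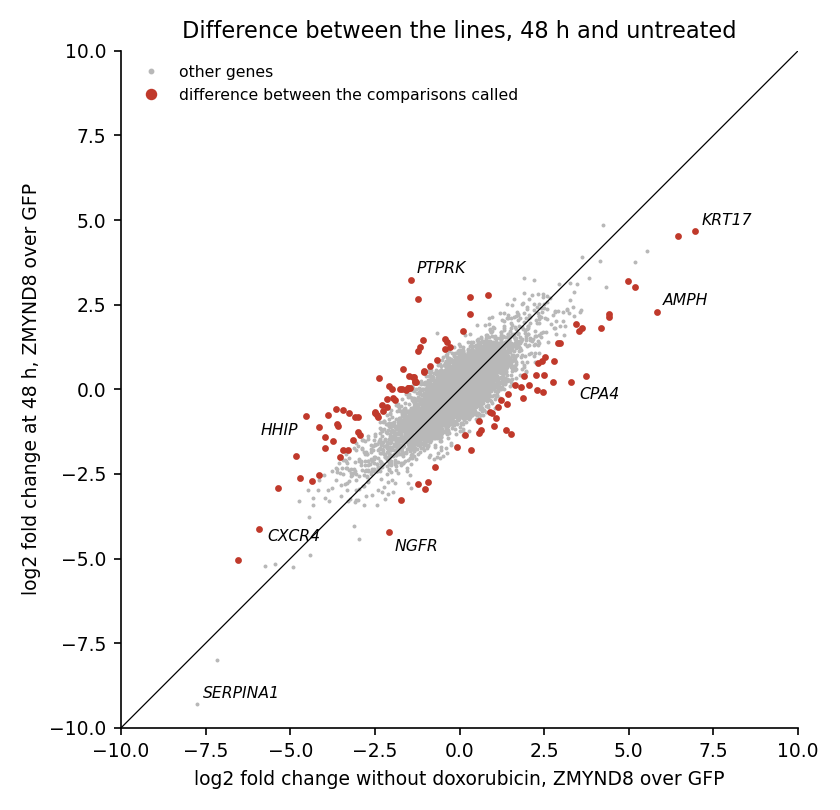
Fitted log2 fold change of ZMYND8 over GFP cells after 48 h of doxorubicin (vertical axis) against that without the drug (horizontal axis) for the 12999 genes with a mean log2 CPM of at least 1 over the 8 libraries, with the line of equality. Genes whose fold change differed between the comparisons by the called criterion are red, for example KRT17 at 4.66 with and 6.97 without the drug and NGFR at −4.22 and −2.09.

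A test of the change itself, the fold change at 48 h minus that in untreated cells, asked which differences moved between the 2 conditions. The labels name no cells kept for 48 h without doxorubicin. Time in doxycycline and in culture therefore cannot be told apart from the drug in this test. Keratin 17, the chaperones, replication genes and cholesterol genes shifted downward in ZMYND8 relative to GFP cells, and ribosomal protein genes and the chemokine CXCL8 upward. The test called 423 genes (2.25%), 244 upward (1.3%) and 179 downward (0.952%), while 2397 (12.7%) moved up and 2974 (15.8%) down at an adjusted p of at most 0.05. With DESeq2 in place of edgeR 234 genes were called, with at least 10 counts in every library 133, and with the unadjusted p 695. In 329 of the 423 the lines differed less at 48 h, in 94 more, and in 44 the direction turned with both comparisons past the threshold. In the 48 h libraries 30201 to 30566 genes had a count, against 22477 to 23609 in the untreated and 6 h libraries of both lines, and the part of this in the test was not tested.

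Among replication genes 44 of 50 moved down in this test and 0 moved up. Their median was 0.26 untreated and −0.55 at 48 h. MCM10 stood at 18.9 and 21.4 CPM in GFP cells and 53.4 and 54.9 CPM in ZMYND8 cells without the drug, and at 111 and 123 against 107 and 104 CPM with it (change −1.58, adjusted p = 5e-13). Both lines were thus higher at 48 h. The excess of MCM10 in ZMYND8 cells was gone, with a small deficit in its place (−0.15, and −0.08 without GFP replicate 2). Of the 46 mitotic genes 41 moved down and 0 up, from a median of 0.42 to −0.08, and of the 42 repair and checkpoint genes 26 moved down and 2 up. BRCA1, CDC25A, CLSPN and RFC3 moved by −0.71, −0.75, −0.89 and −0.59. For p21, CDKN1A, untreated levels were 114 and 106 CPM in GFP cells and 133 and 135 CPM in ZMYND8 cells, so that the small excess in ZMYND8 cells turned into a deficit (change −1.07, SE 0.0594, adjusted p = 3.6e-13).

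Ribosomal protein genes moved the other way, 71 of 75 up and 0 down, from a median of −0.12 to 0.44. Of 33 cholesterol genes 23 moved down and 0 up. SCD had 2090.3 and 2214 CPM in GFP cells and 919 and 927 CPM in ZMYND8 cells without the drug (change −1.56, SE 0.0605, adjusted p = 3.9e-16). It was lower in ZMYND8 cells without the drug, and the fold difference was larger with it. The chaperones came closer between the lines, with 19 of 24 moving down and 0 up. HSP90AA1 went from 1878 and 1897 against 3409.9 and 3485 CPM without the drug to 2335 and 2389 against 2109 and 2073 CPM with it (change −1.05, adjusted p = 1.5e-14).

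Of the 26 cytokine and NF-kB genes 18 moved up and 1 down. CXCL8 was at 55.4 and 54.4 CPM in GFP cells and 1.79 and 3.41 CPM in ZMYND8 cells without the drug (change 1.63, SE 0.204, adjusted p = 5.2e-07), so the gap narrowed from both sides. Without the drug the histone demethylase KDM6B was at 48.6 and 48.9 against 50.2 and 54.97 CPM, close together, and the lines were apart at 48 h (change 1.06, adjusted p = 1.2e-10). CCR7 was likewise at 0.355 and 0.158 against 0.335 and 0.219 CPM untreated (change 4.00, adjusted p = 0.00058), as was LINC00472 at 35.5 and 31.4 against 31.4 and 28.6 CPM (change 1.03, adjusted p = 2.1e-07). ABCG2, at 0.811 and 1.00 CPM in GFP cells and 15.6 and 17.2 CPM in ZMYND8 cells without the drug, had come down in one line and up in the other by 48 h (change −2.35, adjusted p = 2.1e-07). CDH1 was higher at 48 h than before in both lines, where it had been at 0.862 and 0.580 against 3.46 and 4.86 CPM, and the ratio between them shrank (change −1.57, adjusted p = 0.00029). ZMYND8 itself was at 209 and 208 CPM in untreated GFP cells and 922 and 927 CPM in untreated ZMYND8 cells, and its fold change was larger at 48 h (change 0.64, SE 0.0635, adjusted p = 1.2e-08).

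Neighbouring genes shared part of the difference. The median log2 fold change of 406 expressed genes on the X chromosome was 0.52 at 48 h and 0.42 untreated, and 284 of them rose and 58 fell. Chromosomes 13 (0.29) and 7 (0.23) had the next highest medians and chromosome 14 the lowest (−0.33, with 69 genes up and 251 down). In 245 windows of 50 consecutive expressed genes the median ran from −0.56, in a window on chromosome 16 that begins with PSME3IP1 and ends with E2F4, to 0.79 on the X, with a 5th percentile of −0.38 and a 95th of 0.39. On the X, 5 adjacent windows had medians of 0.63 to 0.79 at 48 h and 0.54 to 0.74 untreated, whereas the last window, from FMR1 to MPP1, had −0.10. Among 11 windows beyond 0.5 in size, 7 were so untreated with the same sign. Pearson's r over the windows between 48 h and untreated was 0.92, as a description of lines that the comparisons share. KDM5C, KDM6A, POLA1, FANCB, TIMP1, RPL39 and EBP lie on the X, and what the regional shift adds to their differences was not tested.

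**Figure D5:**
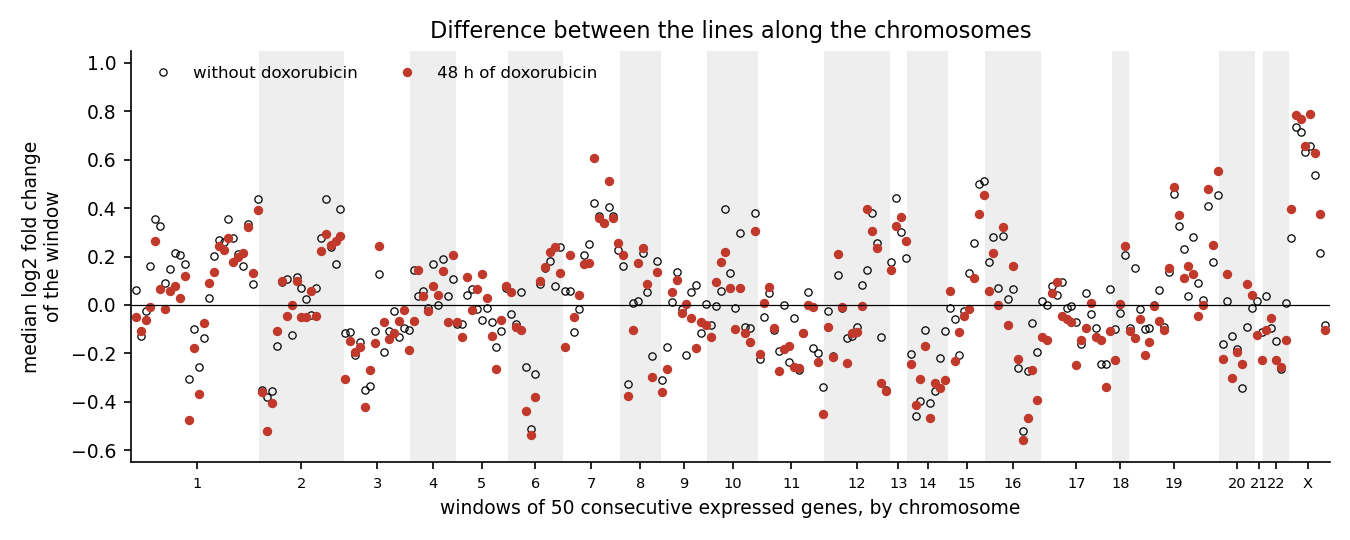
Median log2 fold change of ZMYND8 over GFP cells in windows of 50 consecutive expressed genes (vertical axis) in order along chromosomes 1 to 22 and X (horizontal axis), after 48 h of doxorubicin (red) and without it (open circles), 1 point per window. The X chromosome holds the 5 windows with medians of 0.63 to 0.79 at 48 h, and the points with and without the drug lie close together along the genome.

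The libraries carried the marks of the labelled cell line. All 12 markers of MDA-MB-231 were tested and detected, with VIM the most abundant and a summed level of 5848 and 5709 CPM in GFP and 6154 and 5999 CPM in ZMYND8 cells. Of them 7 rose and 4 fell, among them the receptor kinases AXL (0.59) and EGFR (0.40) and the keratin KRT18 (−0.56). Of 14 markers of luminal breast cells 6 rose and 4 fell, with summed levels of 491 and 475 CPM in GFP and 349 and 366 CPM in ZMYND8 cells, and the most abundant, KRT19, fell from 305 and 302 to 98.6 and 102 CPM (−1.60) while AGR2 rose from 3.42 and 2.57 to 14.5 and 15.02 CPM (2.31). Of 11 markers of blood cells 5 were tested and 4 fell. Their summed level was 143 and 135 CPM in GFP and 46.8 and 48.8 CPM in ZMYND8 cells, most of it from LAPTM5 (111 and 106 against 35.9 and 37.5 CPM). Of 8 endothelial markers 5 were tested and 3 fell, with summed levels of 10.96 and 9.63 CPM against 4.76 and 4.85 CPM and PECAM1 the most abundant. No marker of the 4 lists was at 0 in all 4 libraries, and the part of other cell types in these values was not tested.

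The replicates at 48 h lay far closer to each other than the lines did. Taking genes of 20 counts or more, the chi-square divided by its degrees of freedom was 2.19 between the GFP replicates and 2.36 between the ZMYND8 replicates, against 91.4 to 97.5 between libraries of different lines. A few genes broke this pattern and were singled out for it after their values had been seen. SCAMP3 had 1.29 and 23.8 CPM in the GFP libraries, EIF3CL 0.843 and 12.2 CPM there and HRAS 1.26 and 6.81 CPM in the ZMYND8 libraries.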

How the data were processed

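Poly(A) mRNA was sequenced as read pairs. The counts of read pairs per gene were made by the authors and deposited without normalization. They come from featureCounts 1.6.4 on GENCODE 31 (hg38), per the file headers. The paper's methods name TopHat for alignment and the submitters' processing notes name HISAT2 after Trim Galore, and which of them made these files could not be told from the counts.

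The 12 libraries of the inducible lines (6 conditions of 2) were fitted together in edgeR 4.0.16 with limma 3.58.1 under R 4.3.3, with filterByExpr, TMM factors and the quasi-likelihood test, and p-values were adjusted by Benjamini-Hochberg. Tables and figures used Python 3.11.15, pandas 2.3.3, numpy 2.4.6, scipy 1.17.1 and matplotlib 3.10.9. The code was tested on simulated data. Gene symbols were matched for 60261 of 60603 genes. An exact permutation test of 2 against 2 cannot give a two-sided p below 0.333, so the p-values come from the fit, which shares the spread across genes and conditions.

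Depth was 20175357 to 22142730 counted read pairs in each library at 48 h, so a gene with 3 counts in a library is at the floor used for bounds. Alternatives were fits of the compared libraries alone, DESeq2 1.42.0, totals or DESeq2 size factors for scaling, other filters, thresholds and an unadjusted p, a replicate block, and leaving out each library. The deposited table of transiently transfected cells gave levels of the control only, and its 4 other columns of per-sample values were not used.

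Genes named were the 12 largest rises and falls among those called with a mean log2 CPM of at least 1. At the same minimum the 5 largest changes of the difference in each direction were named. Added to these were up to 4 members of each gene list in each direction and the genes the study names. MIR30A, LINC00472, MYO1G, KRT16P6, CCR7, GBP1, SCAMP3, EIF3CL and HRAS were chosen after their values were seen. Samples and gene lists were chosen with earlier results of these data known. Promoters are the 250 bases before the first RefSeq start of each gene.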

Additional observations from a re-analysis of the deposited data

Results flagged for a closer look

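The difference between ZMYND8 and GFP cells at 48 h of doxorubicin was set against that without the drug. Among genes with a mean log2 CPM of at least 1, the 5 with the largest change in each direction are given here. In each of them the edgeR test of the change itself passed. CCR7, whose change is given above, was below that level. Among the genes given here the change was upward in 5. PTPRK, a receptor tyrosine phosphatase, stood at 6.59 and 7.07 CPM in untreated GFP cells and 4.47 and 0.788 CPM in untreated ZMYND8 cells, and at 0.266 and 0.336 against 3.37 and 2.42 CPM at 48 h, a change of 4.69 (adjusted p = 4.5e-06). Its untreated ZMYND8 replicates were far apart. The ribosomal protein pseudogene RPL13AP5, to which reads of its parent gene may be assigned, went from 8.77 and 14.7 against 3.96 and 5.78 CPM to 2.35 and 2.82 against 12.6 and 20.8 CPM (3.92, adjusted p = 1.1e-08). In both genes the direction of the difference turned.

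HHIP, an inhibitor of hedgehog signals, went from 23.9 and 23.7 to 7.63 and 6.94 CPM in GFP cells and from 1.06 and 1.01 to 3.98 and 4.47 CPM in ZMYND8 cells, so the gap between the lines narrowed (3.74, adjusted p = 7.8e-12). INAVA, a regulator of innate immune signals, narrowed by 3.10 (adjusted p = 8e-10), from 17.1 and 16.03 against 0.782 and 1.40 CPM to 15.4 and 11.7 against 7.20 and 8.64 CPM. For the synaptic gene RIMS1 the levels were 4.51 and 4.90 against 0.391 and 0.350 CPM untreated and 2.89 and 3.95 against 2.60 and 2.00 CPM at 48 h (3.08, adjusted p = 2.2e-06).

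In 5 genes the change was downward. BRDT had 0 counts in both untreated GFP libraries and 29.1 and 27.4 CPM in untreated ZMYND8 cells, and 0.977 and 0.631 against 21.1 and 22.4 CPM at 48 h. The fitted change of −7.45 (adjusted p = 9.4e-07) depends on the prior count, since 1 group is at 0. AMPH, an endocytic adaptor, went from 0.101 and 0.316 against 11.95 and 12.3 CPM to 1.64 and 1.30 against 6.95 and 7.49 CPM (−3.54, adjusted p = 2.6e-07). The carboxypeptidase CPA4 went from 4.87 and 4.06 against 43.7 and 44.7 CPM to 27.8 and 27.8 against 32.5 and 32.1 CPM (−3.09, adjusted p = 1.7e-14), and the interferon-induced IFI44L from 0.558 and 0.422 against 3.52 and 3.28 CPM to 9.77 and 9.34 against 11.2 and 10.8 CPM (−2.57, adjusted p = 4.2e-07). In both the GFP line had come near the ZMYND8 line by 48 h. ITPK1, an inositol phosphate kinase, had 16.5 and 6.90 CPM in the GFP libraries at 48 h, which lie apart, and 4.51 and 4.76 CPM in ZMYND8 cells, and untreated levels of 4.92 and 5.01 against 13.7 and 14.8 CPM (−2.85, adjusted p = 0.0002). Its difference at 48 h was −1.33 and without GFP replicate 1 it was −0.57, no longer past the threshold.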

How the results depend on the processing

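The count of 1742 genes called at 48 h stayed within 1.5 times under most alternatives and ran from 1595 to 1700 when each library was left out. It was 826 with at least 10 counts in every library compared and 3285 with a log2 threshold of 1. That filter removes, by construction, sparse genes and genes near absent in 1 line only, among them SERPINA1, SPARC and KRT14. Shared with the 1742 genes were 1398 of 1410 with DESeq2, 1607 of 1655 with only the 4 libraries, and 1378 to 1428 when a library was left out. The 423 genes called for the change with the drug became 234 with DESeq2, 133 with at least 10 counts in every library, 695 with the unadjusted p and 837 with a threshold of 1, and ran from 364 to 421 when a library was left out. The filter and the threshold act by construction, and the cause of the difference with DESeq2 was not tested. With the replicate number as a block 1726 and 400 genes were called. The replicates are not known to be paired, and the correlation of replicate differences between the lines at 48 h was −0.041, within −0.185 to 0.071 over 15 pairs of conditions.

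Of 296 named genes, those with the same direction and side of the threshold as reported numbered 292 with only the 4 libraries, 278 with DESeq2, 296 with either other scaling, 291 without a filter, 269 with at least 10 counts in every library (27 had no value) and 294 with the block. Leaving out a library gave 275 to 281, and the line left with 1 library is then assumed to vary like the other conditions.

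The sign turned for a few values near 0 or with replicates apart. The median fold change was positive with only the 4 libraries for the nucleic acid sensors (0.0249), the BCL2 family (0.0139) and the stemness genes (0.0155). Over the 4 fits that each left out a library, the range was −0.0138 to 0.104 for NOTCH1, −0.87 to 0.60 for ALDH1A1, −0.817 to 0.0322 for ABCB1, −0.13 to 0.19 for ABCC1, −0.0226 to 3.66 for CCL5, −4.18 to 0.0230 for SCAMP3, −1.26 to 1.17 for HRAS and −3.51 to 0.33 for EIF3CL. In the last 4 of these 1 library differs from its replicate, and the cause was not tested.

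Depth limits what can be said of sparse genes. With 20175357 to 22142730 read pairs per library, 95 genes called higher rest on at most 3 counts in each GFP library and 86 of their bounds pass the fold threshold, as do 108 of 121 in the other direction. Fold changes of such genes are bounds or intervals.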
